A study of Mus musculus with 223 samples.

Results

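The potassium channel genes described here are the 92 genes whose mouse symbol consists of Kcn, the letters of a subfamily and a number, among 43629 genes counted in single cells. They were chosen by name and not by their values, and transcripts that only carry a channel's name, such as the noncoding Kcnq1ot1, do not belong to them. Of the 92 genes, 51 reached 1 RPM, that is 1 read pair in 1000000 mapped read pairs, over all 223 cells pooled, as did 14064 genes in all. Another 27 had read pairs but stayed below 1 RPM, and 14 had no read pair in any cell.

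Potassium channels let potassium leave the cell and so set its resting potential, end each action potential and limit firing. The pore is built from alpha subunits. Voltage-gated Kv1 to Kv4 subunits repolarize the membrane, and among them Kv3 channels open and close fast enough for the rapid firing of many cortical interneurons (INs), while Kv4 channels carry a transient current that delays spikes. KCNQ subunits form the M-current, EAG, ERG and ELK channels are slower relatives, calcium- or sodium-gated channels act after spikes, inward rectifiers and two-pore channels hold the resting potential, silent modifier subunits form no channel alone, and auxiliary subunits tune the pore-forming ones.

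Cells came from the cortex of Htr3a-GFP mice of both sexes on a C57BL/6 background, in which regulatory sequences of Htr3a, a serotonin receptor gene, drive the green fluorescent protein in INs that derive mostly from the caudal ganglionic eminence. All groups carry this transgene. GFP+ cells were sorted at embryonic day 18 (E18), postnatal day 2 (P2) and postnatal day 5 (P5), and 1 library was made per cell: 82 at E18, 22 type 1, 31 type 2 and 13 type 3 INs at P2, and 34 type 1, 19 type 2 and 22 type 3 INs at P5. The animals of an age were pooled, so each age is 1 sample, cells are not replicates, and no difference below has a replicate check or a p-value.

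The 3 types are the authors' assignment from these same counts, which included the channel genes, so the comparisons of types are descriptions. Mapped read pairs per cell ranged from about 3707600 to 15840100. The labels place the cells in 4 library sets, called A to D here, and all P2 cells were in set A, so that P2 and its set cannot be told apart. E18 and P5 cells were spread over sets B, C and D, and the P5 types unequally so: sets B, C and D held 11, 11 and 12 type 1 INs, 2, 3 and 14 type 2 INs, and 2, 3 and 17 type 3 INs. P5 tissue was also dissociated in another medium and at another temperature than E18 and P2 tissue, which cannot be told apart from age. Htr3a was above 10 RPM, the level taken here as expression, in 53.8% of P2 type 3 INs and in 75.6% to 89.5% of the cells of each other group. At E18, 44 of 82 cells had at least 2 of 4 markers of INs of the medial ganglionic eminence (MGE) above 10 RPM, against 7 of 66 at P2 and 0 of 75 at P5, and 12 E18 cells had at least 2 markers of excitatory neurons. At P5, 5 of 19 type 2 INs had at least 2 markers of some other cell type, for 4 of them of astrocytes, against 1 of 34 INs of type 1 and 1 of 22 of type 3. The part of these cells in each difference was not tested, beyond the values without them given below.

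Expression was sparse and carried by few cells for most genes. A cell had a median of 4 channel genes above 10 RPM at E18 (range 1 to 11), 3 at P2 (0 to 9) and 4 at P5 (0 to 12). Type 1 INs had a median of 2 at P2 and 4 at P5, type 2 INs 3 and 6, and type 3 INs 2 and 5.5. The groups overlapped widely in the plot of channel genes per cell, and P5 type 3 was the only group with no cell below 3. Per 1000 genes above 10 RPM, channel genes numbered 1.66 at E18, 1.04, 1.62 and 2.04 in P2 types 1, 2 and 3, and 1.65, 1.99 and 2.84 in P5 types 1, 2 and 3. Type 3 INs thus had the highest number per expressed gene at both postnatal ages, in libraries where fewer genes were above 10 RPM, with a median of 1437 per cell at P2 and 2101.5 at P5, against 1834 and 2258 in type 1 INs. After each cell was thinned to the lowest depth of any cell, the median number was 4 at E18, 3 at P2 and 5 at P5.

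**Figure D1:**
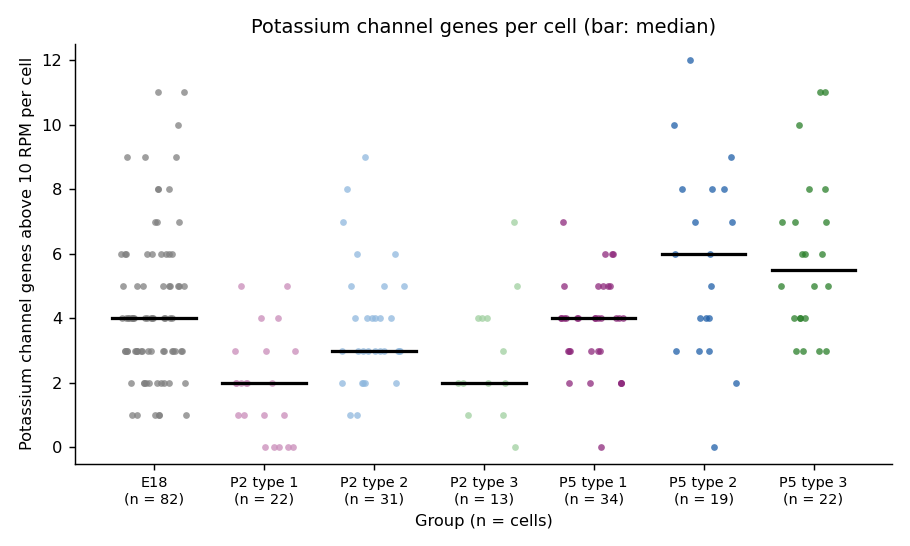
Number of potassium channel genes above 10 RPM in each cell (vertical axis) for the 7 groups (horizontal axis, n cells each); each point is 1 cell and the bar is the group's median. The medians lay between 2 and 6, all groups overlapped, and the highest cell, a P5 type 2 IN, had 12.

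Between families, the share of cells with any member above 10 RPM differed. At least 1 of the 17 Kv1 to Kv4 alpha subunits was above 10 RPM in 58.5% of E18 cells (exact 95% binomial interval 47.1% to 69.3%), in 43.9% of P2 cells (31.7% to 56.7%) and in 86.7% of P5 cells (76.8% to 93.4%). In P5 type 3 INs this was 22 of 22 cells, and in P2 type 1 INs 6 of 22. Intervals cover counting error only. Those of shares treat cells as independent, though the animals of an age were pooled. Those of pooled levels treat read pairs as independent, though they were counted without molecular identifiers and differ widely between cells. The 5 KCNQ genes were present in 53.7%, 48.5% and 52% of cells at E18, P2 and P5, and the 8 EAG, ERG and ELK genes in 47.6%, 36.4% and 42.7%, with intervals that overlapped between ages. Of the 15 auxiliary subunit genes, at least 1 was present in 56.1% of E18 cells (44.7% to 67%). At P2 this was 22.7% (13.3% to 34.7%) and at P5 52% (40.2% to 63.7%), so the P2 interval lay below the others. Among the groups it was 73.7% in P5 type 2 INs and 13.6% in P2 type 1 INs. The 14 two-pore leak channel genes were found in 39%, 25.8% and 24% of E18, P2 and P5 cells, and the 10 silent modifier genes in 11%, 12.1% and 6.67%. The intervals of both of these families overlapped between ages.

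**Figure D2:**
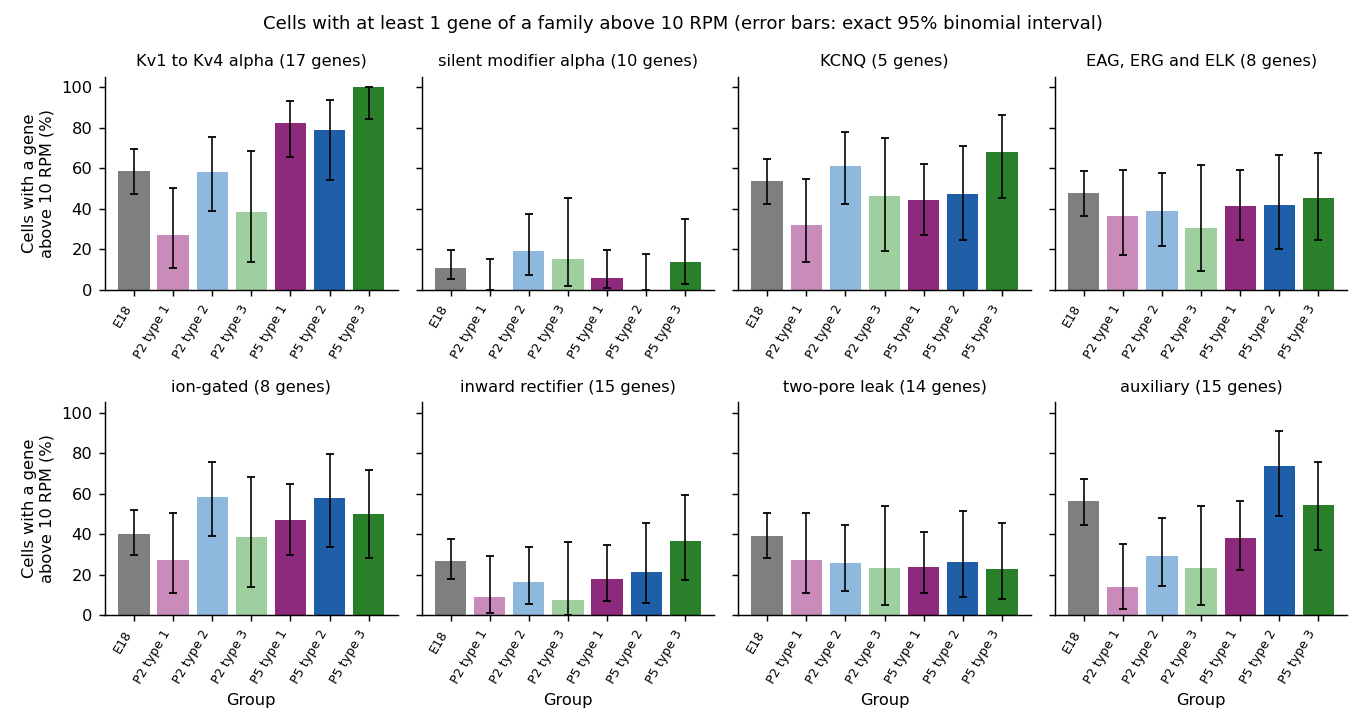
Percentage of cells with at least 1 gene of a family above 10 RPM (vertical axis) in each of the 7 groups (horizontal axis); bars are shares and error bars exact 95% binomial intervals. The Kv1 to Kv4 panel stands at 78.9% or more in the 3 P5 types and at 58.5% or less elsewhere.

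Per kilobase of exon, the scale on which genes can be compared, Kcnc2 had the highest level of the 92 genes over all cells at 10.1 RPM per kb. It was followed by Kcna3 (6.15), Kcnmb2 (5.88), Kcnd2 (4.78), Kcnip1 (4.66) and Kcnk2 (4.33). Levels and spread did not always go together. Kcna3, a Kv1 subunit, was above 10 RPM in 21 of 223 cells and Kcnf1, a silent modifier ranking high at 3.9 RPM per kb, in 6, with 40.7% of its read pairs in 1 P2 type 3 cell. Kcnh7 was above 10 RPM in 70 cells, Kcnq3 in 51 and Kcnc1 in 48.

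Only 12 of the 92 genes exceeded 10 RPM in 25% or more of any group's cells, which is the rule by which genes are named below. The 11 described are 5 Kv1 to Kv4 subunits (Kcnb2, Kcnc1, Kcnc2, Kcnd2, Kcnd3), Kcnq3, the ERG subunit Kcnh7, the calcium- or sodium-gated Kcnma1, Kcnn2 and Kcnt2, and the auxiliary subunit Kcnip1. None of the 15 inward rectifiers, 14 two-pore channels or 10 silent modifiers reached that share in any group. For Kcnc2, Kcnt2, Kcnd2, Kcnd3, Kcnq3, Kcnn2 and Kcnma1 the lowest cell of every group had no read pair, so that levels below are given by the median and the highest cell.

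**Figure D3:**
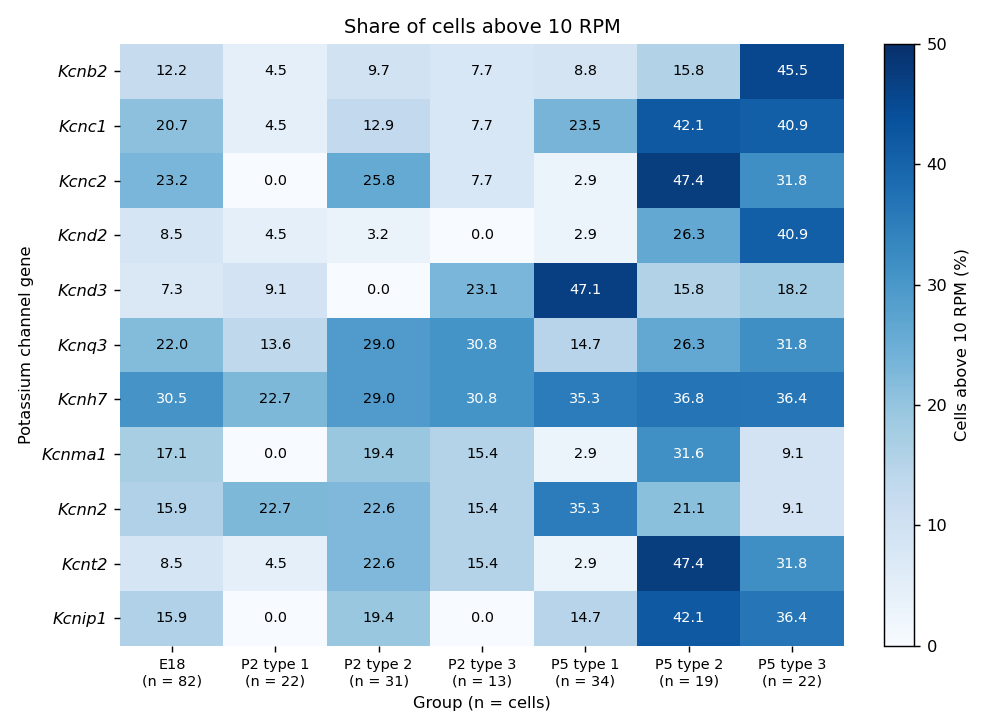
Percentage of cells above 10 RPM (colour and printed value) for 11 genes named by the rule (rows) in the 7 groups (columns, n cells each). Kcnc2, Kcnt2 and Kcnma1 stand at 0 to 4.55% in type 1 INs of both ages, Kcnd3 is highest in P5 type 1 INs at 47.1%, and Kcnh7 lies between 22.7% and 36.8% in every group.

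Kcnc2, which encodes a Kv3 subunit (chromosome 10, 112271121 to 112467024, plus strand, GRCm38), was nearly absent from type 1 INs. In P2 type 1 it was above 10 RPM in 0 of 22 cells, which allows a share of up to 13.6%, and the highest cell had 0.224 RPM. In P5 type 1, 1 of 34 cells had 73.4 RPM and held 97.1% of the group's read pairs. Clear positive cells were more frequent in most other groups. They were 19 of 82 at E18, up to 2780.1 RPM, and 8 of 31 in P2 type 2, up to 997 RPM. In P5 type 2 they were 9 of 19, up to 185 RPM, and in P5 type 3 they were 7 of 22, up to 1427 RPM. P2 type 3 also had a single positive cell, 1 of 13, at 81.3 RPM and with 99.6% of the group's read pairs. The median cell was at 0 in all postnatal groups except P5 type 2, where it was at 6.25 RPM.

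Pooled over cells, Kcnc2 stood at 130.4 RPM at E18 (exact 95% Poisson interval 129.6 to 131), at 0.0226 and 1.79 RPM in type 1 INs of P2 and P5, at 80.2 and 25.9 RPM in type 2 INs and at 6.35 and 107 RPM in type 3 INs. At P5, type 1 against the other types gave a log2 fold of -4.57, with 1 RPM added to both sides as in all folds here, and -4.03 once the highest type 2 or 3 cell was left out. The fold was negative within each library set, at -6.26 in B, -3.22 in C and -3.66 in D. In set D alone, the largest at P5, 1 of 12 type 1 INs and 13 of 31 INs of the other types were above 10 RPM. Type 3 against the other P5 types gave 3.28, or 2.56 without the highest type 3 cell, with 7.66, -0.91 and 2.46 in sets B, C and D. The high E18 level was not restricted to the MGE-marker cells: it was 162 RPM in the 44 E18 cells with at least 2 MGE markers and 93.5 RPM in the other 38.

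Kcnt2, a sodium-activated channel subunit (chromosome 1, 140246158 to 140612067, plus strand), had the same kind of difference at P5. A single P5 type 1 cell of 34 was above 10 RPM, at 13 RPM, whereas 9 of 19 type 2 INs reached up to 282 RPM and 7 of 22 type 3 INs up to 718 RPM. Of those 9, 2 were among the 5 type 2 INs with at least 2 markers of another cell type, and Kcnt2 stood at 78.8 RPM in the 14 without and 29.7 RPM in the 5 with them. Pooled levels were 0.474 RPM (0.404 to 0.552), 66.3 RPM and 88.9 RPM, and type 1 against the others gave a log2 fold of -5.73, or -5.36 without the highest cell. Within sets B, C and D the fold was -3.92, -6.88 and -6.08. At P2 the level was 3.99, 20 and 5.7 RPM in types 1, 2 and 3, and at E18 it was 12 RPM, of which 65.1% came from 1 cell. Kcnt2 and Kcnc2 were each above 10 RPM in 16 of the 41 P5 INs outside type 1.

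Kcnd3, a Kv4 subunit (chromosome 3, 105452330 to 105674002, plus strand), went the other way. At P5 it was above 10 RPM in 16 of 34 type 1 INs (47.1%, interval 29.8% to 64.9%), up to 1599 RPM and with the median cell at 6.37 RPM. Only 3 of 19 INs of type 2 and 4 of 22 of type 3 exceeded 10 RPM, up to 172 and 513 RPM. Pooled levels were 92.3, 12.4 and 33.8 RPM. The log2 fold of type 1 against the others was 1.97, or 1.31 without the highest type 1 cell, and it was 0.43, 1.07 and 2.81 in sets B, C and D. At P2 the pattern was another one: it exceeded 10 RPM in 2 of 22 INs of type 1, in none of 31 of type 2 and in 3 of 13 of type 3, and the P2 type 1 level of 39.6 RPM dropped to 5.42 RPM without 1 cell. Reads of Kcnd3os, which shares 165 exonic bases on the other strand, cannot be told apart from those of Kcnd3 where counting ignored strand, a setting the sources used here do not give.

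**Figure D4:**
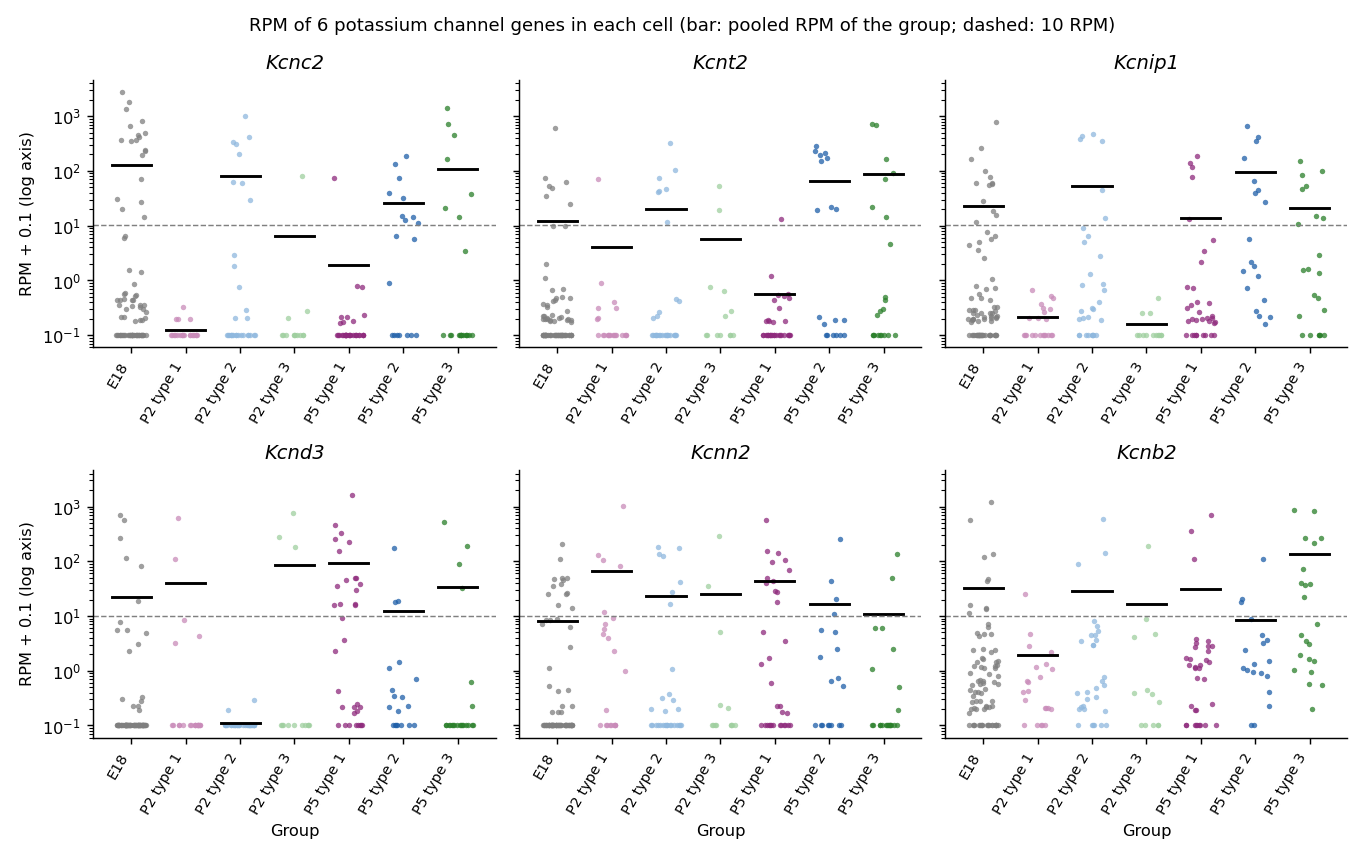
RPM of 6 genes in each cell (vertical axis, log scale, 0.1 added) for the 7 groups (horizontal axis); points are cells, the bar is the pooled RPM and the dashed line 10 RPM. In the P5 type 1 column 1 of 34 cells lies above the line for Kcnc2 and for Kcnt2 and 16 for Kcnd3, and in the P5 type 3 column 10 of 22 lie above it for Kcnb2.

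Promoter sequences of these 3 genes are shown because the genes were low (Kcnc2, Kcnt2) or high (Kcnd3) in P5 type 1 INs. They run from 250 bases before to 50 after a RefSeq start site (RefSeq, GRCm38.p6) and are printed 5′ to 3′ on the gene's strand. Capitals mark either GGGCGG, the GC box, or TGACAG, the core bound by MEIS factors, on either strand (CCGCCC and CTGTCA on the other). Meis2, one of the markers of type 1 INs, was above 10 RPM in 97.1% of P5 type 1 cells (33 of 34). For types 2 and 3 the P5 shares were 36.8% (7 of 19 cells) and 4.55% (1 of 22). A link between Meis2 and the level of any of these 3 genes was not tested. The windows are chr10:112269767-112270066 (+), the most upstream of 4 Kcnc2 starts, chr1:140245468-140245767 (+) for Kcnt2 and chr3:105451640-105451939 (+) for Kcnd3. All of them end before the gene starts given above. The other 3 Kcnc2 windows, which are not printed, cover the start given above for that gene.
Kcnc2: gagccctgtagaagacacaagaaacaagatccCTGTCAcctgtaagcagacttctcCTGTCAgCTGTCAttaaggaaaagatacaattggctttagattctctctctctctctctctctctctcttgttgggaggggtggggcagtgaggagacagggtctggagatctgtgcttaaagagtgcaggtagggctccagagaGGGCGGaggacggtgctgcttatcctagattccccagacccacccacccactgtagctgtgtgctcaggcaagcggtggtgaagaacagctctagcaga
Kcnt2: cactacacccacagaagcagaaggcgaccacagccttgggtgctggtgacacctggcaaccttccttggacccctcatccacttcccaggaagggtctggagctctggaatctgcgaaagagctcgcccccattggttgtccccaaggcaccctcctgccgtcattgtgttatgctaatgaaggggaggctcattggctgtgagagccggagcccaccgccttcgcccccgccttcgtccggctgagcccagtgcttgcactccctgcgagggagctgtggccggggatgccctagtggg
Kcnd3: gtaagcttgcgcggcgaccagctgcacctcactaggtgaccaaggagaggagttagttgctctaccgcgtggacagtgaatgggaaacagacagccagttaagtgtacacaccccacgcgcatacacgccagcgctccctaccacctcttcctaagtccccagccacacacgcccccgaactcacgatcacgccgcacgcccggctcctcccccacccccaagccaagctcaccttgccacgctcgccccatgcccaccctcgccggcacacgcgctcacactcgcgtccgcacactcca
The Kcnc2 window holds 3 TGACAG cores and 1 GC box, its other 3 starts hold neither, and the windows of Kcnt2 and Kcnd3 hold neither. Among 27025 RefSeq promoter windows, 19.3% hold TGACAG and 35.9% GGGCGG, against 16 and 35 of the 67 windows that matched channel genes. None of the 6 windows of these genes holds TATAAA or AGGTCA, the TATA box and a nuclear receptor half-site, which 14.2% and 16% of all windows hold. The Kcnd3 window is rich in CpG with 25 sites, the Kcnt2 window has 12 and the Kcnc2 window 3, beside a median of 7 over all windows. A match is a description of letters and not a site shown to be bound.

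Kcnc1, the other Kv3 subunit with values here (chromosome 7), did not share the near absence of Kcnc2 from type 1 INs. At P5 it exceeded 10 RPM in 8 of 34 INs of type 1, 8 of 19 of type 2 and 9 of 22 of type 3, at 29.9, 42.8 and 66.4 RPM, with highest cells of 317, 371 and 534 RPM. At E18 17 of 82 cells expressed it, at 18.2 RPM, and at P2 6 of 66, at 14.8 RPM. P5 against E18 gave a log2 fold of 1.17, or 0.98 without the highest P5 cell, and 1.57, -0.28 and 0.95 in library sets B, C and D. Both Kv3 genes were above 10 RPM together in 7 of 19 P5 type 2 INs, which are 7 of the 8 cells with Kcnc1 and of the 9 with Kcnc2. In P5 type 3 INs 3 of 22 cells had both, and in P5 type 1 INs 0 of 34.

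Kcnb2, a Kv2 subunit of the delayed rectifier (chromosome 1), and Kcnd2, a Kv4 subunit (chromosome 6), were highest in type 3 INs at P5. Kcnb2 was above 10 RPM in 10 of 22 type 3 INs, up to 872 RPM, against 3 of 34 INs of type 1 and 3 of 19 of type 2, and stood at 137, 30.8 and 8.34 RPM. The log2 fold of type 3 against the others was 2.53 and stayed at 2.04 without the highest cell. It was positive in sets B, C and D, at 0.87, 4.56 and 5.16. At P2 Kcnb2 exceeded 10 RPM in 1 of 22, 3 of 31 and 1 of 13 cells of types 1, 2 and 3.

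For Kcnd2, 9 of 22 P5 type 3 INs were above 10 RPM, up to 637 RPM, against 5 of 19 INs of type 2 and 1 of 34 of type 1. Levels were 68.4, 25.2 and 12.8 RPM, but 86.8% of the type 2 reads and 93.6% of the type 1 reads came from 1 cell each. The type 2 cell, at 502 RPM, had 5 of 5 markers of the oligodendrocyte lineage and 2 of 6 astrocyte markers above 10 RPM. Kcnd2 stood at 4.47 RPM in the 14 P5 type 2 INs with fewer than 2 markers of any other cell type and at 85.9 RPM in the other 5. Type 3 against the others gave a log2 fold of 1.94, or 1.38 without the highest cell, with 3.23, -2.07 and 3.80 in sets B, C and D. At P2 a single type 1 cell at 2168 RPM held nearly all reads of its group, which gave 90.9 RPM with it and 0.0142 RPM without it, and that cell had 2 of 6 excitatory markers above 10 RPM. Of 15 P5 cells with Kcnd2 and 23 with Kcnd3, 2 had both, 1 of type 1 and 1 of type 3.

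**Figure D5:**
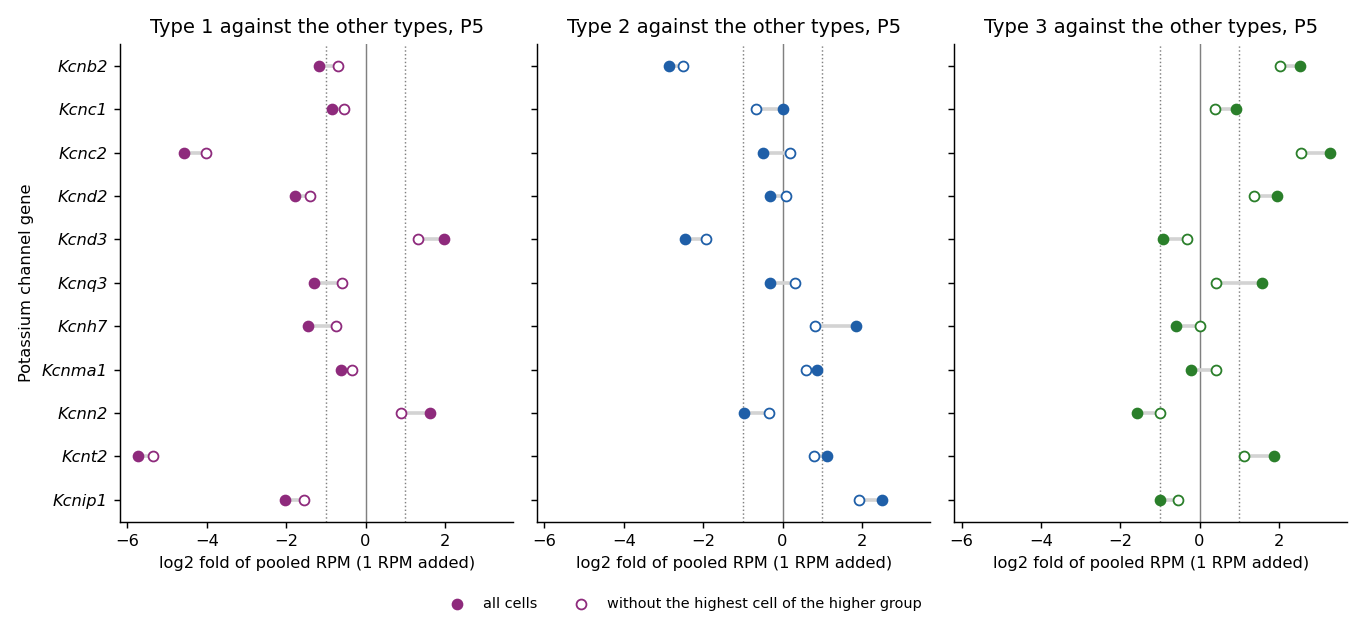
Log2 fold of pooled RPM (horizontal axis, 1 RPM added to both sides) of each P5 type against the other P5 types for 11 named genes (vertical axis); filled points use all cells, open points leave out the highest cell of the higher group and dotted lines mark 2-fold. Kcnc2 and Kcnt2 lie at -4.57 and -5.73 in type 1 INs, and Kcnd3 at 1.97; Kcnh7 in type 2 and Kcnq3 in type 3 INs are among the genes that fall short of 2-fold when 1 cell is left out.

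Kcnip1, an auxiliary subunit that assembles with Kv4 channels (chromosome 11), exceeded 10 RPM in 8 of 19 INs of type 2, 8 of 22 of type 3 and 5 of 34 of type 1 at P5. Type 2 INs had the highest level at 96.7 RPM (highest cell 663 RPM), with 20.8 RPM in type 3 and 13.9 RPM in type 1 INs. Type 2 against the others gave a log2 fold of 2.50, or 1.92 without the highest cell, with -4.28 in set B, where there are 2 type 2 INs, and 3.82 and 2.46 in sets C and D. For type 1 against the others, the fold was -2.03 overall but 4.50 in set B, with -6.04 and -1.65 in sets C and D. At P2, 6 of 31 type 2 INs had between 13.9 and 483 RPM, while the highest type 1 and type 3 cells had 0.579 and 0.373 RPM. The type 2 cell at 483 RPM had 3 MGE markers above 10 RPM. Kcnip1 was above 10 RPM in 6 of the 23 P5 cells that had Kcnd3.

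Kcnq3, a subunit of the M-current (chromosome 15), and Kcnh7, an ERG subunit (chromosome 2), were found in cells of every group. Kcnq3 was found in 13.6% to 31.8% of the cells of every group, at levels from 5 RPM in P5 type 1 to 98.8 RPM in P2 type 2, where 1 cell had 1741 RPM. At P5 type 3 against the others gave 1.58 for Kcnq3 and 0.43 without its highest cell. The median cell had between 0.356 and 3.03 RPM in each group.

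Kcnh7 had read pairs in all 223 cells and was above 10 RPM in 22.7% to 36.8% of each group. The median cell had between 3.67 and 7.68 RPM in every group, lowest in P2 type 1, and the pooled levels from 6.07 RPM in P2 type 1 to 86.4 RPM in P2 type 2 were set by the highest cells. In P5 type 2, 1 cell with 867 RPM held 53.5% of the reads, and the log2 fold against the other types was 1.84 with it and 0.82 without. That cell had 2 of 6 excitatory markers above 10 RPM. At P2, type 1 against the others gave -3.63, and -3.17 without the highest cell, since no P2 type 1 cell exceeded 22.6 RPM and those of types 2 and 3 reached 1044 and 692 RPM. Kcnh7 shares 696 exonic bases with Gca on the other strand, and Kcnma1, Kcnn2, Kcnk2 and Kcnt2 share 1016, 607, 604 and 102 with genes on the other strand, so that the doubt named for Kcnd3 holds for them too.

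Kcnn2, an SK channel subunit gated by calcium (chromosome 18), exceeded 10 RPM at P5 in 12 of 34 INs of type 1, 4 of 19 of type 2 and 2 of 22 of type 3. The highest cells had 575, 256 and 136 RPM, and the pooled levels were 44.2, 16.3 and 10.8 RPM. Type 1 against the others gave a log2 fold of 1.63, which was 0.90 without the highest cell, and it was positive in each set, at 3.50, 3.62 and 2.00. At P2 Kcnn2 also passed 2-fold in type 1 INs, but not without the highest cell, which held 71.6% of their reads. Types 1 and 2 had similar shares of cells above 10 RPM at P2. Kcnma1, the pore of the BK channel opened by calcium and voltage (chromosome 14), was low in all types at P5, at 2.72, 6.16 and 3.25 RPM. Among type 1 INs, 0 of 22 at P2 and 1 of 34 at P5 exceeded 10 RPM, among type 2 INs 6 of 31 and 6 of 19, and among type 3 INs 2 of 13 and 2 of 22. Its level was 40.8 RPM at E18 (14 of 82 cells, up to 1370.5 RPM) and 3.75 RPM at P5, a log2 fold of -3.14, or -2.75 without the highest E18 cell. The fold was -1.56, -0.79 and -4.38 in sets B, C and D. In the E18 cells with at least 2 excitatory markers Kcnma1 stood at 91.4 RPM, and at 31.8 RPM in the other E18 cells left after removing all cells with at least 2 markers of another cell type.

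Over the 51 genes at or above 1 RPM, 15 were more than 2-fold higher and 18 more than 2-fold lower at P5 than at E18, which is 29.4% and 35.3%, beside 15.4% and 22.6% of all 14064 genes. Without the highest cell of the higher group these counts were 8 and 13, beside 7.86% and 13.8% of all genes. The median log2 fold of the 51 genes was 0.0015, and -0.14 over all genes. Scaling by edgeR or DESeq2 factors or by the total count on genes moved the median over all genes by 0.11 to 0.15. Those 8 higher genes included the Kv gene Kcnd1, the silent modifier Kcnf1, which was lower when all cells were kept, Kcnq5, Kcnt2, Kcnn2, Kcnj10 and the auxiliary Kcnip4. Kcnh7, with read pairs in every cell, had a log2 fold of -0.32. Kcnc2 gave -1.90, or -1.64 without the highest E18 cell, with -2.80, -6.24 and 0.03 in sets B, C and D, while its shares were 19 of 82 and 17 of 75 cells. Kcnd3 exceeded 10 RPM in 6 of 82 E18 and 23 of 75 P5 cells, a log2 fold of 1.30 and 0.80 without the highest cell, but it was 2.63, 6.01 and -0.29 in sets B, C and D, so that its direction was the opposite in set D. In set D the shares were 2 of 25 at E18 and 11 of 43 at P5. The shares of Kcnip1 were 13 of 82 and 21 of 75, with a log2 fold of 0.67.

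Several genes were above 10 RPM in a smaller share of cells at P2 and P5 than at E18. Kcnmb2, a BK auxiliary subunit, exceeded 10 RPM in 13 of 82 E18, 1 of 66 P2 and 3 of 75 P5 cells, Kcnk10, a two-pore channel, in 12, 3 and 3, and Kcnab2, an auxiliary subunit of Kv1 channels, in 14, 1 and 4. Kcnk2, a mechanically gated two-pore channel and close relative of Kcnk10, did so in 18, 8 and 8. Its pooled level did not have that order, at 25.6, 34.6 and 5.41 RPM, with 72.9% of the P2 reads in 1 type 1 cell at 1500 RPM and 9.51 RPM at P2 without that cell. Within E18, Kcnk2 stood at 44 RPM in the 44 cells with MGE markers and at 4.32 RPM in the other 38, and Kcnk10 at 16.2 and 37.3 RPM. Kcnk10 was above 10 RPM in 6 of the 12 cells with excitatory markers and in 6 of the other 70. The levels of Kcnk2 and Kcnk10 at E18 thus differed with the markers of other cells, whose part in the difference between ages was not tested. These genes were picked after their values were seen.

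Across types, the counts of genes past 2-fold differed by type at both ages. In P5 type 1 INs 9 of 51 genes were higher and 22 lower than in the other types, or 4 and 13 without the highest cell. All genes gave 21.7% higher and 25.9% lower, and 11.2% and 17% without the highest cell, so the higher share of the channel genes (17.6%, and 7.84% without that cell) lay below the background and the lower share (43.1% and 25.5%) above it. In either direction, 17 of 51 genes passed without it, beside 28.2% of all genes. In P5 type 2 INs 12 genes were higher and 15 lower, beside 23.2% and 22.6% of all genes, and in either direction 27, beside 45.8%. Without the highest cell they were 4 and 13, beside 10.1% and 16.6%. In P5 type 3 INs 15 were higher and 16 lower, beside 15% and 42.2%, and in either direction 31, beside 57.1%. Without the highest cell they were 8 and 15, beside 5.55% and 33.7%. The split of 15 and 16 depended on scaling. With edgeR TMM factors, which moved the median of all genes in that comparison by 0.37, it was 22 higher and 14 lower, beside 21.3% and 35.3% of all genes. With DESeq2 factors it was 21 and 14, beside 21.1% and 35.5%, and with the total count on genes 24 and 13, beside 25.2% and 32.1%. The total count on genes moved the median of all genes by -0.14 in type 1 and -0.22 in type 2, and left 8 higher and 24 lower in type 1, beside 18.4% and 28.7% of all genes, and 11 and 17 in type 2, beside 18.7% and 27.6%.

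At P2, type 1 INs had 11 genes higher and 25 lower than the other types, beside 19% and 33.1% of all genes. Without the highest cell these were 2 and 16, beside 7.88% and 24.6%. Type 2 INs had 21 higher and 12 lower, beside 28.8% and 21%, and 11 and 2 without the highest cell, beside 19.2% and 9.68%. Type 3 INs had 8 higher and 20 lower, beside 13.9% and 50.3%, and 5 and 13 without the highest cell, beside 3.05% and 44.4%. DESeq2 factors moved the median of all genes there by 0.56, with 9 higher and 16 lower beside 22.7% and 42% of all genes, TMM factors gave 9 and 16 beside 20.5% and 43.9%, and the total count on genes 8 and 19 beside 15.7% and 48.3%. In either direction, 49.8% and 64.2% of all genes passed 2-fold in types 2 and 3, and 47.4% in type 3 without the highest cell. The median log2 fold of the channel genes was -0.84 in P2 type 1 INs against -0.23 over all genes, 0 against 0.08 in type 2 and -0.65 against -1.02 in type 3. At P5 it was -0.63 against -0.02 in type 1, -0.26 against -0.0028 in type 2 and 0.16 against -0.58 in type 3, so it lay below that of all genes in types 1 and 2 and above it in type 3 at both ages. For P2 type 2 the small gap closed with scaling, as both medians were 0 with TMM factors. Since the types were drawn from these counts, the differences carry no test.

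The other 39 genes at or above 1 RPM were each above 10 RPM in fewer than 25% of the cells of any group, and most rested on few cells. Kcna2, a Kv1 subunit of fast axonal channels, had read pairs in 8 cells, and 99.6% of them came from 1 P5 type 1 cell at 1327 RPM. Kcna1, its usual partner, was above 10 RPM in 3 E18 cells and no postnatal cell. Kcnh1 was above 10 RPM in 2 cells, 1 of which held 95.9% of its reads. A few genes were low in most cells instead. Kcnj15 had read pairs in 216 cells with a median of 2.54 RPM and a highest cell of 25.6 RPM. Kcnj16, Kcnk6 and, below the 1 RPM limit, Kcnmb1 had read pairs in 204, 198 and 189 cells with medians of 0.643, 0.752 and 0.408 RPM.

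Kcnj10, the inward rectifier of astrocytes and oligodendrocytes, was above 10 RPM in 3 of 223 cells, all at P5. The 2 highest, at 137 and 131 RPM, were type 2 INs. The first had 6 of 6 astrocyte markers above 10 RPM, among them Slc1a3 at 3755 RPM and Aqp4 at 351 RPM, with Gad1 at 52.4 RPM. The second had 5 of 5 markers of the oligodendrocyte lineage and Gad2 at 665 RPM. Among the 14 P5 type 2 INs without such markers, Kcnj10 stood at 0.211 RPM, so the P5 type 2 level of 14.6 RPM came from the other 5 cells.

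The 41 genes below 1 RPM included most inward rectifiers (9 of 15), two-pore channels (9 of 14) and silent modifiers (6 of 10). All 4 Kcne genes, 5 two-pore genes, Kcna7, Kcna10, Kcng4, Kcnj8 and Kcnq1, the cardiac and epithelial KCNQ gene, had no read pair. Kcnk13, a two-pore channel, was above 10 RPM in 1 cell at 68.5 RPM.

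Kcnj8 and Kcnj11 are the pores of the ATP-sensitive channel, whose regulatory subunits are encoded by Abcc8 and Abcc9. Kcnj8 had no read pair in 223 cells and Kcnj11 was above 10 RPM in 1 E18 cell, at 141 RPM. Abcc9 was nevertheless above 10 RPM in 22 of 22 P5 type 3 INs, from 39.4 to 266.9 RPM with a median of 100.3 RPM. It exceeded 10 RPM in 15 of 19 INs of type 2 (median 32.8 RPM) and 18 of 34 of type 1 (median 14.5 RPM) at P5, and in 40 of 82 E18 cells. At P2 it did so in 2 of 22 INs of type 1, 16 of 31 of type 2 (median 14.3 RPM) and 6 of 13 of type 3 (median 8.88 RPM). By share and median type 3 thus did not lie above type 2 at that age. Its pooled level did, at 37.3 RPM against 14.98 RPM in type 2. The lowest P5 type 3 cell lay above the median of every other group, while the highest cells of types 1 and 2, at 84.1 and 116 RPM, overlapped with type 3. No postnatal cell thus had a pore gene of this channel above 10 RPM beside Abcc9. A share of 0 of 22 for Kcnj8 in P5 type 3 INs allows up to 13.6%. P5 type 3 libraries had a median of about 2620270 read pairs on genes, against 5328260 in type 1 INs, and the part of this in the Abcc9 level was not tested.

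Of 27 other genes of potassium handling, channel partners, anchors, HCN channels and the sodium pump, 23 reached 1 RPM. At P5 against E18, 5 were higher and 3 lower past 2-fold. Against the other types, 2 were higher and 10 lower in P5 type 1 INs, 4 and 6 in type 2 and 5 and 5 in type 3. At P2 these counts were 4 and 12 in type 1, 10 and 4 in type 2 and 4 and 12 in type 3. The shares of all genes in these comparisons are those given above, with 33.1% lower in P2 type 1 and 50.3% lower in P2 type 3 INs. Without the highest cell of the higher group the counts were 4 and 3 for the ages, 1 and 9, 1 and 4, and 3 and 6 for types 1, 2 and 3 at P5, and 1 and 9, 8 and 0, and 1 and 13 at P2. Ank3, which anchors KCNQ channels at the axon initial segment, stood at 146 RPM in P5 type 1 INs against 569 and 573 RPM in types 2 and 3, and was above 10 RPM in 61.8%, 94.7% and 95.5% of cells. Cntnap2, which clusters Kv1 channels, stood at 3.66, 29 and 31.5 RPM. Dpp10, a partner of Kv4 channels, was widespread, in 76.5%, 89.5% and 90.9% of cells at 47.9, 88.7 and 59.2 RPM, and Dpp6, the related partner, was in 11.8%, 31.6% and 31.8%. Adam22, a partner of Kv1 complexes, was above 10 RPM in 64.7%, 78.9% and 77.3% of P5 cells, while its levels were 237, 271 and 141 RPM, the lowest in type 3.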

How the data were processed

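The authors aligned paired reads to GRCm38 with TopHat2, tallied them per Ensembl gene with HTSeq 0.6.1 and deposited 1 raw count per cell for each of 43629 genes. Whether counting used strand is not given in the sources used here. RPM was that count times the coefficient in the labels, whose inverse gave mapped read pairs. Symbols came from a GRCm38 annotation, which names 42548 genes.

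Counts were summed over the cells of a group and divided by their summed mapped read pairs. Folds are log2 ratios with 1 RPM added, counted from 2-fold up among genes with at least 1 RPM over all cells. Intervals are exact at 95%, and a zero share allows 3 cells. No test was made, since each age is 1 sample.

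Named genes exceeded 10 RPM in 25% or more of some group's cells (the same for partners), beside Kcna1, Kcna2, Kcnj8, Kcnj10, Kcnj11 and Kcnk13 as low or absent genes. Members and lists were chosen with earlier results of these data known, and other genes after their values were seen. Alternatives changed the added RPM, filter, scaling, threshold, depth, highest cells and library sets and, added after seeing the data, left out cells with markers of another type. Some genes are not reported here. Steps were tested on simulated data. Scripts ran in Python 3.11.15 (numpy 2.4.6, with pandas 2.3.3, scipy 1.17.1 and matplotlib 3.10.9) and R 4.3.3, where edgeR 4.0.16 gave TMM factors and DESeq2 1.42.0 size factors.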

Additional observations from a re-analysis of the deposited data

How the results depend on the processing

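Of 30 folds of named genes, 22 were past 2-fold, and their 226 values under alternatives had the same sign in 225 cases and were past 2-fold in 205. Another amount of RPM added to both sides cannot change a sign, so the agreement in sign under those settings was fixed in advance. The exception in sign was Kcnd3 at P5 against E18, at -0.29 in library set D alone; the cause was not tested. These values took in set D, and set B for the ages, but not set C for the ages, nor sets B and C for the P5 types. In those left out, Kcnc1 at P5 against E18 turned to -0.28 in set C, and the report gives opposite signs for Kcnip1, Kcnd2 and Kcnc2 among the types. Kcnc2 at P5 against E18, whose fold of -1.90 is not one of the 30, was 0.03 in set D. Counts of genes past 2-fold moved by over 1.5 times as follows, higher before lower, with the share of all genes under the same setting in parentheses. With 10 RPM added they were 6 and 7 (5.09% and 8.06%) for P5 against E18, 5 and 12 (12% and 11.8%) for type 1, 7 lower (9.25%) for type 2 and 8 and 5 (7.17% and 24.2%) for type 3 at P5, and 6 and 13 (12.1% and 17.2%) for type 1, 6 lower (11.5%) for type 2 and 4 and 7 (9.91% and 28.8%) for type 3 at P2, of 51 genes. With a filter at 10 RPM, which leaves 20 channel genes, they were 7 and 9 (11.5% and 20.3%) for P5 against E18, 10 lower (23.3%) for type 1, 5 and 8 (25.1% and 21.5%) for type 2 and 8 and 6 (12.2% and 50.4%) for type 3 at P5, and 6 and 12 (20.8% and 34.5%), 10 and 7 (30.5% and 21.8%), and 4 and 10 (15.7% and 57.1%) for types 1, 2 and 3 at P2. Without the highest cell of the higher group, where the report gives the shares of all genes, they were 8 higher for P5 against E18, 4 and 13 for type 1, 4 higher for type 2 and 8 higher for type 3 at P5, and 2 and 16, 11 and 2, and 5 and 13 for types 1, 2 and 3 at P2. As means of log2(RPM + 1) over cells, they were 2 and 0 (1.95% and 6.39%) for P5 against E18, 2 and 7 (6.44% and 5.98%), 5 and 1 (16.1% and 1.15%), and 8 and 2 (4.61% and 14.9%) for types 1, 2 and 3 at P5, and 0 and 4 (4.15% and 5.94%), 4 and 1 (12.5% and 0.704%), and 2 and 1 (1.95% and 16.3%) at P2. With the total count on genes, 24 were higher (25.2%) in P5 type 3 INs. Genes per cell had medians of 9, 8 and 10 at a threshold of 1 RPM and 2, 1 and 2 at 50 RPM for E18, P2 and P5, and 5 for P5 after thinning. Leaving out cells with at least 2 MGE markers, with at least 2 markers of another cell type, or both, alternatives chosen after seeing the data, kept all these counts within 1.5 times. No paired analysis was possible because no result comes from a test and each age is 1 sample. The number of cells limits the shares, with 13 in P2 type 3, and 1 cell can set a pooled level.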
